A study of Mus musculus with 6 samples.

Results

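Toll-like receptors and their adaptor Myd88 were examined in tumor-associated macrophages (TAMs) of mice bearing ID8 tumors, with and without the complement receptor C5aR. The set was chosen by name and holds 10 of the 56980 genes listed, namely the cell-surface receptors Tlr1, Tlr2, Tlr4 and Tlr6, the endosomal receptors Tlr3, Tlr7, Tlr8, Tlr9 and Tlr13, and Myd88. All 10 passed the filter on low values, which kept genes that reached a TPM of 1 in 3 or more of the 6 libraries. ID8, a mouse ovarian surface epithelial cancer line, was injected intraperitoneally into female C57BL/6 mice that were 6 to 8 weeks old at the start, and TAMs were taken after 2 months. The WT group holds 3 libraries from wild-type hosts and the C5aR-/- group holds 3 libraries from hosts with a C5aR knockout in all cell types, so the comparison is not restricted to a loss of the receptor in macrophages, and the tumor cells given to both groups were the same line. The study's methods describe flow sorting of live cells positive for CD45, CD11b and F4/80 and negative for Ly6G, while the labels describe RNA taken from tissue. The study describes more mice per group than the 3 libraries per group analysed here, and no label says whether a library is 1 mouse or a pool, so the p-values measure the spread between these libraries, which may be technical in part.

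Toll-like receptors sense conserved microbial molecules and molecules released by damaged cells. Those on the cell surface recognize mainly lipids and proteins, whereas those in endosomes recognize nucleic acids after the receptors have been cut by proteases. Upon binding, nearly all of them recruit Myd88, which assembles IRAK kinases and leads to NF-kB and IRF activity, while Tlr3 signals through the adaptor Ticam1 and Tlr4 uses both adaptors. In macrophages this machinery drives inflammatory cytokines and type I interferon, and C5aR, a G protein-coupled receptor for the complement fragment C5a, is known to modify it.

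Expression is given as TPM, a transcript abundance that is scaled to transcript length and library total, so that levels can be compared between genes. Differences are C5aR-/- minus WT on log2(TPM + 1), with standard errors (SE) and p-values from limma adjusted over all 14776 genes tested. C5ar1, the targeted gene, had a TPM of 86.5, 37.3 and 16.2 in WT libraries 1, 2 and 3 and of 0.38, 0.11 and 0.05 in C5aR-/- TAMs 1, 2 and 3. All C5aR-/- libraries lay far below all WT libraries, as their labels say. Macrophage transcripts varied as widely within a group as between groups, with a summed TPM of 10 macrophage markers from 2575 to 8920 in WT and from 2564 to 8759 in C5aR-/- libraries, highest in library 1 and lowest in library 3 of each. Other cells were also represented. The summed TPM of 6 epithelial markers ran from 1843 to 2039 in WT and from 1669 to 2211 in C5aR-/- libraries. Krt8 alone had 455 to 465 in WT and 624 to 758 in C5aR-/- libraries, apart and higher, while the other epithelial markers overlapped. That of 6 neutrophil markers ran from 626 to 2299 in WT and from 30.8 to 388 in C5aR-/- libraries, that of 5 large peritoneal macrophage markers from 271 to 1107 and from 114 to 255, and that of 5 mesothelial markers from 918 to 1254 and from 711 to 966. Mast cell markers summed to 69.3 to 105 and to 57.9 to 85.4, where Cpa3, Mcpt4, Fcer1a and Tpsb2 did not overlap between groups and were lower in C5aR-/- libraries, whereas Kit was higher. T cell markers summed to 12.1 to 63.9 over all libraries, NK cell markers to 2.55 to 11.2, conventional dendritic cell markers to 17.2 to 44.7, fibroblast markers to 404 to 604 and endothelial markers to 8.77 to 16.2, and each of these 5 sums overlapped between groups.

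The regulatory sequence before the start site is shown for Tlr8, the receptor that passed the unadjusted threshold described below, and for Myd88, the member whose TPM did not overlap between groups. RefSeq promoter windows (GRCm38.p6, from 250 bases before to 50 after a start) matched 8 of the 10 members, none for Tlr4 and Tlr7. Each line gives the 250 bases before the annotated start, 5′ to 3′ on the strand of the gene, and capitals mark a match to the interferon-response-type letters GAAANNGAA or their reverse complement TTCNNTTTC.
Tlr8 (chrX:167264330-167264579, minus strand): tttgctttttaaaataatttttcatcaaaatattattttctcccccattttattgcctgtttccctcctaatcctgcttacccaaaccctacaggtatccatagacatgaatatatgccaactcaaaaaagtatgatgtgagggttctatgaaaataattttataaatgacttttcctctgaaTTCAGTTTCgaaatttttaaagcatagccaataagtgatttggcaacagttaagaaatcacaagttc
Myd88 (chr9:119340019-119340268, minus strand): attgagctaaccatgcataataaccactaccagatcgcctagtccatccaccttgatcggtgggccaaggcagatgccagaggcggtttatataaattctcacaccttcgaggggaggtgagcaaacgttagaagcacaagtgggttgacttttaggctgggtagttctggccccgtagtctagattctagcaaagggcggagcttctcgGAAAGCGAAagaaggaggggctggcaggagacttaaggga
In the Tlr8 window the match TTCAGTTTC lay 67 to 59 bases before the start and read on the opposite strand, and in the Myd88 window GAAAGCGAA lay 40 to 32 bases before the start. For Tlr8 the RefSeq start is the end of the gene in GENCODE M21, whereas GENCODE extends Myd88 farther upstream, so the Myd88 window lies within the GENCODE gene span given below, and its last bases overlap an exon of a GENCODE transcript. One of the Tlr6 windows held 2 overlapping matches of this type, and the letters stood in 8.56% of all 32851 promoter windows. The PU.1-type letters GAGGAAG, found in 13.6% of all windows on either strand, occurred once in a Tlr1 window, once in the Tlr13 window and at 2 places in the Tlr9 window. The NF-kB-type letters GGGACTTTC (0.353% of windows) and the letters GGAANNGAA (8.24%) were not matched in any of the 10 windows of the members. These are matches of letters and not measured binding sites.

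Among the 9 receptors, Tlr2 was the most abundant transcript in 5 of the 6 libraries and Tlr8 in the other, C5aR-/- TAM 1. In WT TAMs the mean TPM ran from Tlr2 (39.0 ± 18.8, SD, n = 3) through Myd88 (35.1 ± 1.55), Tlr13 (15.2 ± 6.47), Tlr4 (12.5 ± 2.84), Tlr3 (9.16 ± 4.35), Tlr8 (9.02 ± 5.69), Tlr7 (8.29 ± 5.54) and Tlr1 (5.07 ± 1.04) to Tlr6 (2.39 ± 0.021) and Tlr9 (2.18 ± 0.351). Neighbors in that order differed by more than the larger of their SDs only at Myd88 over Tlr13 and at Tlr1 over Tlr6. In C5aR-/- TAMs the order was Tlr2 (29.2 ± 14.8), Myd88 (27.1 ± 3.07), Tlr8 (26.1 ± 16.5), Tlr13 (22.3 ± 14.6), Tlr4 (15.4 ± 6.10), Tlr7 (13.5 ± 8.86), Tlr1 (8.27 ± 2.63), Tlr3 (5.42 ± 1.21), Tlr9 (3.16 ± 2.74) and Tlr6 (2.38 ± 1.69), and only Tlr1 over Tlr3 exceeded the larger SD. Among the 9 receptors Tlr8 ranked 3, 5 and 6 in WT TAMs 1, 2 and 3 and 1, 2 and 2 in C5aR-/- TAMs 1, 2 and 3. Tlr3 ranked 6, 4 and 3 in WT and 8, 7 and 7 in C5aR-/- TAMs.

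**Figure D1:**
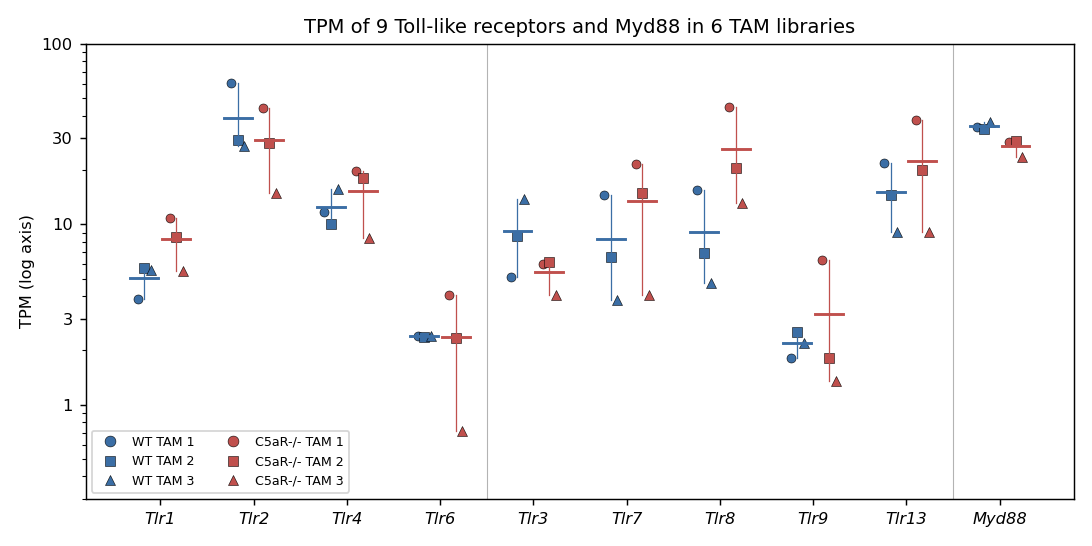
TPM (log axis) of the 9 receptors and Myd88 in each of 3 WT (blue) and 3 C5aR-/- (red) libraries, with symbols for the library number, horizontal bars for the group mean and vertical lines from the lowest to the highest library. C5aR-/- TAM 1 was the highest library for 7 members and C5aR-/- TAM 3 the lowest for 7, and the Myd88 points of the groups are apart.

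No member reached a 2-fold change with an adjusted p under 0.05, and neither did any of the 14776 genes (0.0%), of which 2133 had an unadjusted p under 0.05. When the p was left unadjusted and the other limits were kept, Tlr8 was the only member called, higher in C5aR-/- TAMs, where 314 genes (2.13%) were called in that direction and 419 (2.84%) in the other. Of the 10 members, 6 had a higher and 4 a lower estimate in C5aR-/- TAMs, beside 44.5% of all genes with a higher one.

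The cell-surface receptors sense lipoproteins and lipopolysaccharide, and none of the 4 passed either threshold. Tlr2 (chromosome 3, 83836272 to 83841767, minus strand, GRCm38), the shared partner that pairs with Tlr1 or Tlr6 to bind bacterial lipopeptides, had a TPM of 60.7, 29.3 and 27.1 in WT and of 44.4, 28.3 and 14.8 in C5aR-/- TAMs. The libraries of both groups overlapped, with library 1 highest in each. Its log2 difference was -0.44 (SE 0.46, 95% interval -1.53 to 0.65, adjusted p = 0.701 from limma). Tlr1 (chromosome 5, 64924679 to 64933563, minus strand), which recognizes triacylated lipopeptides with Tlr2, had a TPM of 3.87, 5.74 and 5.59 in WT and 10.8, 8.51 and 5.53 in C5aR-/- TAMs. Only C5aR-/- TAM 3 lay within the WT range, and the log2 difference of 0.59 (SE 0.28, 95% interval -0.08 to 1.25) had an adjusted p of 0.397 from limma. Tlr6 (chromosome 5, 64952031 to 64960097, minus strand), which recognizes diacylated lipopeptides with Tlr2, was nearly constant in WT at a TPM of 2.40, 2.37 and 2.41 and spread from 4.08 and 2.34 to 0.71 in C5aR-/- TAMs. The WT values lay inside the C5aR-/- range, a spread of 5.75-fold from lowest to highest library, and the log2 difference was -0.14 (SE 0.40, limma adjusted p = 0.901). Tlr1 and Tlr6 are neighbors 18468 bases apart, and 15.4% of the 50-base stretches of Tlr1 transcripts and 12.3% of those of Tlr6 also occur in other genes, mostly in each other, so how reads were divided between them is uncertain. Tlr4 (chromosome 4, 66827584 to 66930284, plus strand), the lipopolysaccharide receptor, had a TPM of 11.8, 10.1 and 15.6 in WT and 19.7, 18.1 and 8.4 in C5aR-/- TAMs. The C5aR-/- libraries held both the highest and the lowest value, and the log2 difference was 0.22 (SE 0.34, 95% interval -0.59 to 1.03, limma adjusted p = 0.807).

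The endosomal receptors bind nucleic acids. Tlr8 (chromosome X, 167242696 to 167264329, minus strand), best known from its human counterpart as a sensor of single-stranded RNA, had a TPM of 15.5, 6.89 and 4.71 in WT and of 44.7, 20.5 and 13.1 in C5aR-/- TAMs. Each C5aR-/- library exceeded the WT library of the same rank, but the lowest of them lay below the highest WT library, so the groups overlapped. The ratio of the means was 2.89, and the log2 difference was 1.41 (SE 0.54, 95% interval 0.13 to 2.69) with an unadjusted p of 0.0357 and an adjusted p of 0.312 from limma. In a two-sided exact permutation test p was 0.2, where 0.1 is the smallest that 3 against 3 libraries allow. The difference stayed positive in all alternatives, from 0.94 to 1.84, with adjusted p from 0.0773 to 0.727. The unadjusted call was lost on leaving out WT TAM 2 (1.31, limma adjusted p = 0.727), WT TAM 3 (1.08, adjusted p = 0.543), C5aR-/- TAM 1 (0.94, adjusted p = 0.295) or C5aR-/- TAM 2 (1.49, adjusted p = 0.491), each with an unadjusted value between 0.0664 and 0.112.

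Tlr7 (chromosome X, 167304929 to 167330558, minus strand), the other single-stranded RNA sensor and the neighbor of Tlr8 at a distance of 40600 bases, had a TPM of 14.5, 6.61 and 3.79 in WT and 21.6, 14.9 and 4.07 in C5aR-/- TAMs. The groups overlapped and library 1 was highest in each, with a log2 difference of 0.57 (SE 0.65, 95% interval -0.98 to 2.12, limma adjusted p = 0.730). The TPM ratio of Tlr8 to Tlr7 was 1.07, 1.04 and 1.24 in WT and 2.07, 1.37 and 3.22 in C5aR-/- libraries. These ratios, chosen after seeing the data, did not overlap between groups (exact permutation p = 0.1). How many of all genes would be apart relative to Tlr7 was not counted, so the ratio is given as a description only. Tlr13 (chromosome X, 106143204 to 106160493, plus strand), which senses bacterial ribosomal RNA, had a TPM of 21.9, 14.6 and 9.04 in WT and 38.0, 20.0 and 9.02 in C5aR-/- TAMs. The lowest library of each group was nearly the same, and the log2 difference was 0.40 (SE 0.53, 95% interval -0.86 to 1.66, limma adjusted p = 0.769).

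Tlr3 (chromosome 8, 45395665 to 45411080, minus strand), the double-stranded RNA sensor that does not use Myd88, was the endosomal receptor with a lower estimate in C5aR-/- TAMs. Its TPM was 5.09, 8.65 and 13.7 in WT and 6.03, 6.21 and 4.03 in C5aR-/- TAMs, and WT TAM 1 lay inside the C5aR-/- range. The log2 difference was -0.59 (SE 0.35, 95% interval -1.43 to 0.25, limma adjusted p = 0.493). The antisense gene Gm45542, which holds 5.3% of the 50-base stretches of Tlr3, was listed at 0 in all libraries other than WT TAM 2. In the WT libraries Tlr3 ran opposite to the macrophage markers, highest where their sum was lowest. The mesothelial sum was also highest in WT TAM 3, at 1254 against 918 in WT TAM 1, and lowest in C5aR-/- TAM 3, at 711, but its 5 markers did not move together. Upk3b, Lrrn4 and Upk1b were apart and lower in C5aR-/- libraries, Wt1 overlapped, and Msln was apart and higher (145, 135 and 180 in WT, 268, 284 and 288 in C5aR-/- libraries), with its highest value in C5aR-/- TAM 3, where Tlr3 was lowest. The part of mesothelial cells in the Tlr3 values was not tested. Tlr9 (chromosome 9, 106222598 to 106226883, plus strand), the sensor of unmethylated CpG DNA, had a TPM of 1.82, 2.52 and 2.21 in WT and of 6.31, 1.82 and 1.36 in C5aR-/- TAMs. Only C5aR-/- TAM 1 exceeded the WT libraries, and the log2 difference was 0.20 (SE 0.44, limma adjusted p = 0.867). B cells and plasmacytoid dendritic cells are rich in Tlr9, and a gate on CD11b and F4/80 would be expected to remove most of them. The summed TPM of 5 B cell markers was 140, 166 and 33.7 in WT and 168, 54.6 and 9.16 in C5aR-/- libraries, overlapping between groups. That of 5 plasmacytoid dendritic cell markers was highest in C5aR-/- TAM 1 (11.3, against 2.07 to 5.29 in the others). The plasmacytoid marker Siglech had a TPM of 4.54 there and of 0.54 to 1.86 elsewhere, and Cox6a2 stayed under 1 in all 6 libraries. Klk1 was apart and higher in C5aR-/- libraries, at 0.41, 0 and 0.5 in WT and 3.77, 1.64 and 1.48 in C5aR-/- TAMs. Siglech, Cox6a2, Ccr9 and Pacsin1 overlapped between groups. The part of B cells and plasmacytoid dendritic cells in the Tlr9 values was not tested.

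Myd88 (chromosome 9, 119335934 to 119341411, minus strand) was the least variable member, at a TPM of 34.5, 33.9 and 36.8 in WT and 28.7, 29.1 and 23.6 in C5aR-/- TAMs. All C5aR-/- libraries lay below all WT libraries. No other member was apart on TPM in either direction, and among all genes tested 1845 (12.5%) were apart in this direction and 1306 (8.84%) in the other. The log2 difference of -0.36 (SE 0.14, 95% interval -0.70 to -0.03) had an unadjusted p of 0.0375, as 1237 genes (8.37%) did below 0.05 in this direction at any fold change, an adjusted p of 0.318 from limma and an exact permutation p of 0.1. The unadjusted p was above 0.05 on leaving out any library other than C5aR-/- TAM 1, with estimates from -0.41 to -0.27. Myd88 overlaps Acaa1a on the opposite strand, with 7.42% of its 50-base stretches shared, and Acaa1a, a peroxisomal thiolase, had a log2 difference of -0.05 (SE 0.17).

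**Figure D2:**
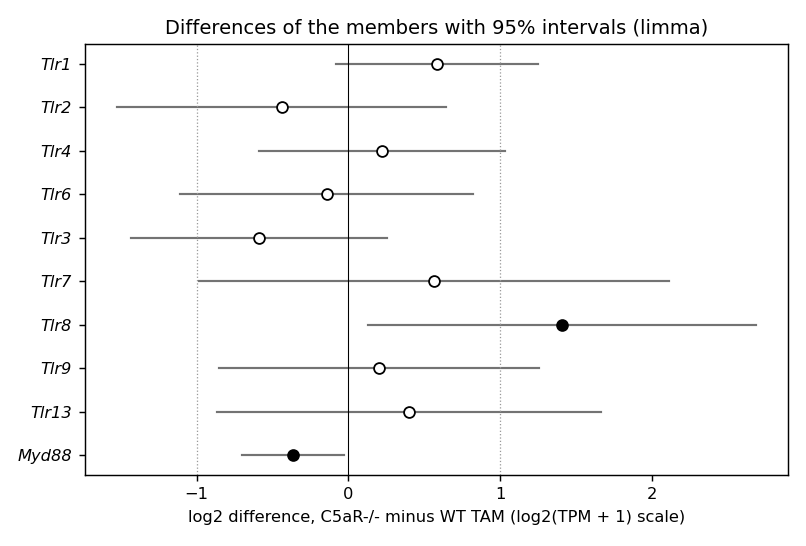
Log2 difference, C5aR-/- minus WT on log2(TPM + 1), of each member with its 95% interval from limma. Filled points have an unadjusted p under 0.05, dotted lines mark a fold change of 2, and only Tlr8 (1.41) lies beyond them.

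Since the macrophage content of the libraries varied, each member was also set against the mean log2(TPM + 1) of 10 macrophage markers (Adgre1, Csf1r, Cd68, Fcgr1, Mertk, Itgam, C1qa, C1qb, C1qc and Lyz2) in the same library. In bulk samples fewer cells of a type and less RNA per cell cannot be told apart. The marker mean itself was 8.01, 6.85 and 6.44 in WT and 8.23, 7.42 and 6.67 in C5aR-/- libraries (exact permutation p = 0.6). Relative to it, Tlr8 lay at -3.97, -3.87 and -3.93 in WT and at -2.71, -3.00 and -2.85 in C5aR-/- libraries on the log2 scale. Within each group these values were close together, and the groups were apart by 1.07 (exact permutation p = 0.1). Among all genes tested 72 (0.487%) were apart in this direction. Tlr8 was apart from 9 of the 10 markers taken singly, with differences from 0.57 to 2.05, the exception being Fcgr1, a high-affinity Fc receptor. Fcgr1 was itself apart and higher in C5aR-/- libraries, at a TPM of 8.6 to 13.6 in WT and 16.9 to 26.6 in C5aR-/- TAMs. How many of all genes were apart from single markers was not counted. Tlr2 lay at -2.07, -1.93 and -1.63 in WT and at -2.73, -2.55 and -2.69 in C5aR-/- libraries, lower by a difference of -0.78 (exact permutation p = 0.1), as 482 genes (3.26%) were apart in that direction. It was apart from 7 markers taken singly and overlapped relative to Adgre1, Itgam and Lyz2, where the differences over the 10 markers ran from -1.27 to 0.20. Neutrophils also express Tlr2. The described gate, negative for Ly6G, would remove them, but their transcripts were present, and their markers were lower in C5aR-/- libraries in 5 of 6 cases, with Ly6g listed at 0 in C5aR-/- TAMs 1 and 3, as were 2 of 5 large peritoneal macrophage markers. Their part in the Tlr2 values was not tested. The other 8 members overlapped between groups on this scale, Myd88 included (-0.70, exact permutation p = 0.4). With 10 comparisons and 0.1 as the smallest p, none of them could pass a threshold of 0.05.

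**Figure D3:**
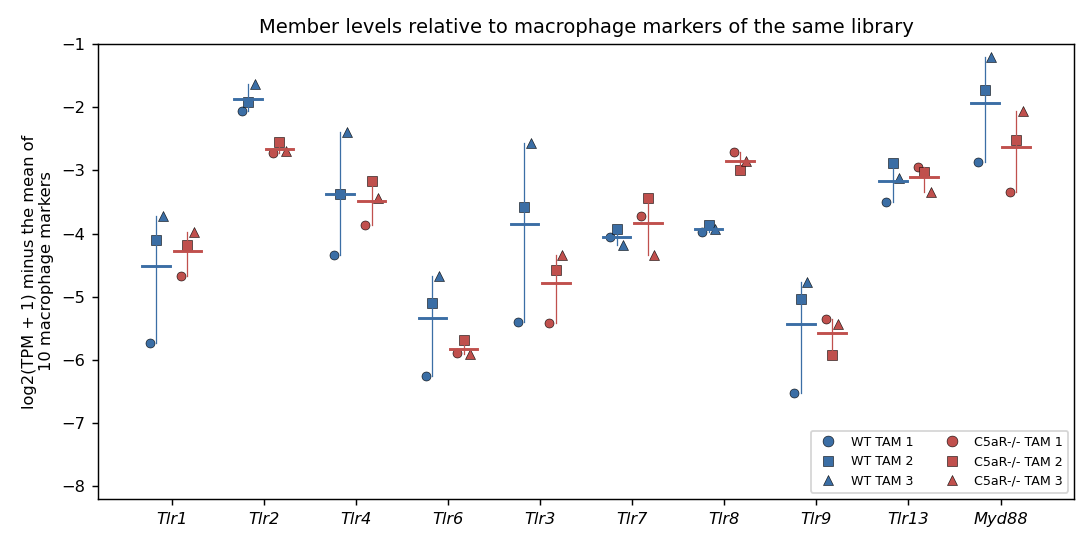
Level of each member relative to the macrophage markers of its own library, as log2(TPM + 1) minus the mean of 10 markers, with points for the 3 WT (blue) and 3 C5aR-/- (red) libraries, bars for means and lines from lowest to highest. Tlr8 is apart and higher in C5aR-/- libraries (-2.86 against -3.92), Tlr2 is apart and lower (-2.66 against -1.87), and the other 8 members overlap.

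The summed TPM of the 9 receptors was 137, 86.8 and 84.2 in WT and 196, 121 and 61.1 in C5aR-/- libraries, and the groups overlapped (102.8 ± 30.02 against 125.8 ± 67.4, SD, n = 3, exact permutation p = 0.7). The make-up of this sum was then compared, a scale chosen after the data had been seen. Tlr8 took 11.2%, 7.94% and 5.59% of it in WT and 22.9%, 16.97% and 21.5% in C5aR-/- libraries. Tlr2 took 44.1%, 33.8% and 32.2% in WT and 22.7%, 23.4% and 24.3% in C5aR-/- libraries. In each case the groups did not overlap (exact permutation p = 0.1), with means of 8.26% ± 2.85 against 20.4% ± 3.08 for Tlr8 and 36.7% ± 6.47 against 23.5% ± 0.796 for Tlr2. Divided by the same sum, 229 of all genes tested (1.55%) were apart and higher in C5aR-/- libraries and 766 (5.18%) apart and lower. The shares of the other 7 receptors overlapped.

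Shares of one sum are bound to each other, so each of these receptors was left out in turn. Without Tlr8 in the sum, Tlr2 took 49.7%, 36.7% and 34.1% in WT and 29.4%, 28.2% and 30.9% in C5aR-/- libraries, still apart. Without Tlr2 in the sum, Tlr8 took 20.1%, 11.99% and 8.25% in WT and 29.6%, 22.2% and 28.4% in C5aR-/- libraries, also apart. Tlr13 became apart and higher without Tlr8 (15.9% ± 3.90 against 21.3% ± 3.40), and Tlr6 became apart and lower without Tlr2 (3.82% ± 0.607 against 2.25% ± 0.629), so the calls on these receptors depended on what was summed. The share of all genes apart on either reduced sum was not counted, so the values without Tlr8 or Tlr2 are a description only.

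**Figure D4:**
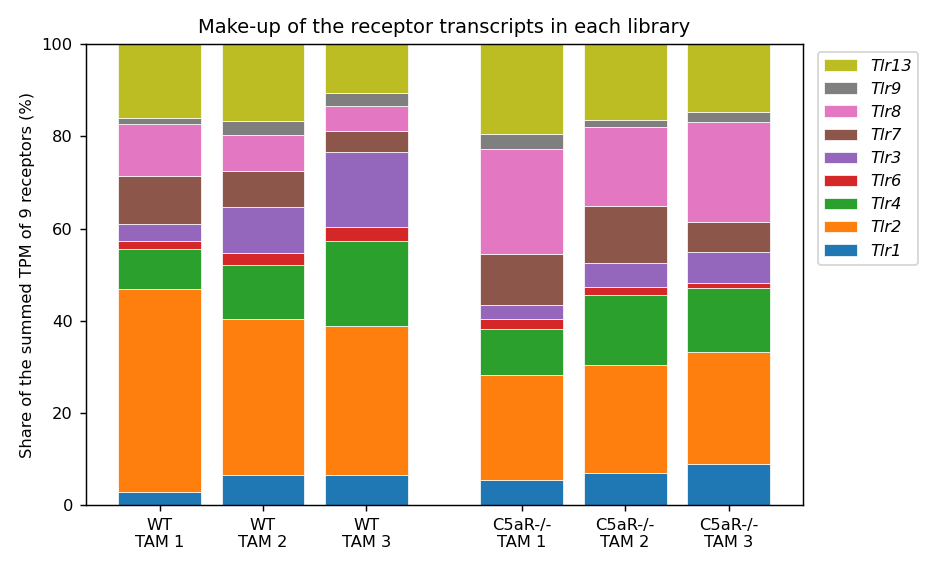
Share (%) of each of the 9 receptors in their summed TPM, as stacked bars for each WT and C5aR-/- library. Tlr8 (pink) takes 5.59% to 11.2% in WT and 16.97% to 22.9% in C5aR-/- libraries, and Tlr2 (orange) 32.2% to 44.1% and 22.7% to 24.3%.

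The other genes of the pathway, together with 10 sensors of other families, were taken from lists of 102 genes, of which 100 were tested. Of these 44 had a higher and 56 a lower estimate in C5aR-/- TAMs (median -0.08, against -0.05 over all genes tested). At the unadjusted threshold 3 were called higher and 7 lower, beside 2.13% and 2.84% of all genes tested. None was called at the adjusted threshold (limma adjusted p from 0.0965 to 0.998).

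Among the remaining Toll-like receptor genes, Tlr12, a profilin receptor, was called higher at the unadjusted threshold, with a TPM of 0.05, 0.59 and 1.38 in WT and of 1.75, 1.69 and 4.76 in C5aR-/- TAMs (log2 difference 1.14, SE 0.44, limma adjusted p = 0.312). The groups were apart at low levels. Tlr5, the flagellin receptor, overlapped at 3.30 to 8.17 in WT and 4.12 to 10.2 in C5aR-/- TAMs, and Tlr11 did not pass the filter. Of 4 other TIR adaptors tested, 2 had a higher and 2 a lower estimate and none was called. Tirap, which bridges Tlr2 and Tlr4 to Myd88, had a TPM of 7.91, 8.63 and 10.5 in WT and 6.30, 7.33 and 6.60 in C5aR-/- TAMs. Like Myd88 it did not overlap between groups and was lower in C5aR-/- libraries (-0.36, SE 0.19, limma adjusted p = 0.423). Ticam1, the adaptor of Tlr3, stayed between 12.3 and 16.2 in all libraries (-0.03, SE 0.17).

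Of 12 co-receptors and trafficking factors, 9 had a higher and 3 a lower estimate (median 0.08), and 1 was called. Lbp, the carrier of lipopolysaccharide, had a TPM of 38.0, 39.6 and 56.1 in WT and 26.5, 24.3 and 7.37 in C5aR-/- TAMs, apart and lower (-1.32, SE 0.46, limma adjusted p = 0.283). The part of other cells in the Lbp values was not tested. Cd14, the partner of Lbp, spread from 88.0 to 427 in WT and from 86.4 to 526 in C5aR-/- TAMs (0.55, SE 0.81), and Ly96, the lipopolysaccharide-binding subunit of the Tlr4 complex, from 11.7 to 15.7 and from 13.2 to 17.9 (0.09, SE 0.20). Unc93b1, which carries the endosomal receptors out of the endoplasmic reticulum, had a TPM of 137, 101 and 82.9 in WT and 218, 119 and 94.2 in C5aR-/- TAMs, overlapping (0.36, SE 0.34, limma adjusted p = 0.667).

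Of 9 genes that cut receptors and nucleic acid ligands in endosomes and lysosomes, 7 had a higher and 2 a lower estimate (median 0.26), and 2 were called higher at the unadjusted threshold. Lgmn, an asparagine endopeptidase that cleaves endosomal receptors, had a TPM of 248, 184 and 143 in WT and of 646, 391 and 355 in C5aR-/- TAMs. All C5aR-/- libraries lay above all WT libraries (1.26, SE 0.29, unadjusted p = 0.00395 and adjusted p = 0.157 from limma). Dnase2a, a lysosomal DNase, was even in WT at 38.7, 39.8 and 36.1 and reached 54.0, 105 and 169 in C5aR-/- TAMs, apart from WT (1.35, SE 0.38, limma adjusted p = 0.211). It was highest in C5aR-/- TAM 3 and lowest in WT TAM 3. The part of cell content in the Dnase2a values was not tested.

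No gene of the signaling core was called. Of 16 kinases and ubiquitin ligases, 9 had a higher and 7 a lower estimate, all between -0.24 and 0.28. Irak4, the first kinase of the complex that forms on Myd88, had a TPM of 11.5, 10.2 and 11.4 in WT and 13.1, 11.5 and 9.51 in C5aR-/- TAMs (0.03, SE 0.18), and Traf6, the ubiquitin ligase below it, 13.3, 13.0 and 10.6 and 14.8, 10.3 and 9.17 (-0.12, SE 0.22). Among 9 transcription factors, 4 had a higher and 5 a lower estimate and none was called. Irf5, which acts downstream of Myd88, had a TPM of 95.1, 112 and 132 in WT and 86.3, 65.9 and 39.6 in C5aR-/- TAMs, apart and lower, with an estimate short of a fold change of 2 (-0.87, SE 0.29, unadjusted p = 0.0213 and adjusted p = 0.266 from limma). Irf7 spread from 43.4 to 149 in WT and from 23.1 to 65.0 in C5aR-/- TAMs (-0.87, SE 0.57), and Irf3 and the NF-kB subunit Rela overlapped (-0.13, SE 0.21, and 0.09, SE 0.13). The 12 negative regulators had 7 higher and 5 lower estimates (median 0.05) and no call.

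Genes induced by the pathway had mostly lower estimates in C5aR-/- TAMs. Of 14 NF-kB output genes 13 had a lower estimate (median -0.70) but none was called. Of 12 interferon output genes 11 had a lower estimate (median -1.05) and 5 were called lower at the unadjusted threshold. Over all genes tested 8206 of 14776 had a lower estimate, and 2.84% were called lower at that threshold. On leaving out single libraries the NF-kB median ran from -1.21 without WT TAM 3 to -0.11 without C5aR-/- TAM 3, and the interferon median from -1.45 without WT TAM 1 to -0.81 without WT TAM 3. Without C5aR-/- TAM 3, 8 of the 14 NF-kB output genes had a lower and 6 a higher estimate, and 9 of the 14 were highest in WT TAM 1. The summed markers of neutrophils and of large peritoneal macrophages, given above, were also lower in C5aR-/- libraries without overlap, the latter highest in WT TAM 1 (1107, 396 and 271 in WT TAMs 1, 2 and 3), and their part in these lists was not tested. Ifit1, an interferon-induced RNA-binding protein, had a TPM of 7.69, 14.6 and 26.6 in WT and of 2.54, 1.61 and 0.85 in C5aR-/- TAMs, without overlap (-2.59, SE 0.46, limma adjusted p = 0.0965). Isg15, a ubiquitin-like modifier, had 65.9, 76.0 and 158 in WT and 42.6, 20.1 and 21.7 in C5aR-/- TAMs (-1.76, SE 0.41, limma adjusted p = 0.155). Ifnb1, encoding interferon beta, had 11, 7.59 and 2.05 in WT and 0.98 and 0.53 in C5aR-/- TAMs 1 and 2, and was listed at 0 in C5aR-/- TAM 3 (limma adjusted p = 0.168). Ifit2 was 11.5, 20.5 and 23.4 against 7.54, 6.75 and 8.75 (-1.12, SE 0.28, limma adjusted p = 0.173). Each of these 4 genes, named for their small p, was apart between groups, where 12.5% of all genes tested were apart in this direction. Oasl1, another interferon-induced gene named after its values were seen, was apart and higher in C5aR-/- TAMs (0.56, SE 0.21). Among 10 sensors of other families 2 had a higher and 8 a lower estimate (median -0.56), and Ddx58, the cytosolic RNA sensor RIG-I, was called lower at a TPM of 63.9, 65.7 and 139 in WT and 63.3, 37.3 and 25.7 in C5aR-/- TAMs (-1.07, SE 0.41, limma adjusted p = 0.318). Ddx58 barely separated the groups, with C5aR-/- TAM 1 just under WT TAM 1.

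**Figure D5:**
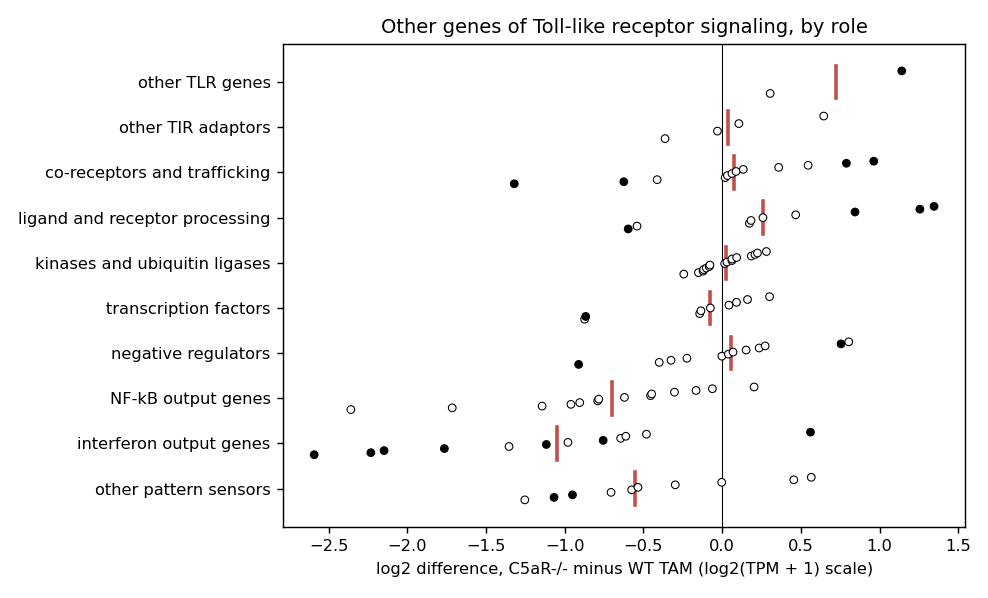
Log2 difference, C5aR-/- minus WT on log2(TPM + 1), of 100 other genes in 10 lists, including a list of sensors of other families. Each point is 1 gene, filled where the unadjusted limma p is under 0.05, and red bars are list medians, which run from -1.05 for interferon output genes to 0.72 for the 2 remaining Toll-like receptor genes tested.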

How the data were processed

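RNA of ID8 TAMs was sequenced in 3 WT and 3 C5aR-/- libraries, grouped by the sample labels. The submitters' processing notes list fastp, HISAT2, StringTie, RSEM, DESeq2 and the build mm10, with no versions; the study's methods name StringTie for FPKM values, and which tool made the deposited TPM is not given in the sources used here. The authors deposited TPM values per gene, and their 2 columns of group means were not used. TPM keeps no depth, so no counting error can be given, and the study's count-based tests could not be applied.

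Genes that reached a TPM of 1 in 3 or more libraries were tested with limma 3.58.1 in R 4.3.3 (lmFit, eBayes with trend) on log2(TPM + 1), with Benjamini-Hochberg adjustment over 14776 genes; this scale shrinks differences of weakly expressed genes. Calls needed a 2-fold change and a p under 0.05, adjusted or unadjusted. The test was checked on simulated data. Single values were compared by exact permutation (Python 3.11.15, numpy 2.4.6). Symbols and positions come from GENCODE M21 (GRCm38), promoters from RefSeq (GRCm38.p6). Protein sequences were not analysed here.

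Members, gene lists and markers were chosen with earlier results of these data known. Besides members and 12 fixed genes, the text names up to 4 genes per list with the smallest unadjusted p past the unadjusted threshold; Tlr5, Tlr11, Oasl1, Acaa1a and single markers were named after seeing values. The alternatives tried were the replicate number as a block, median-of-ratios scaling, quantile normalization, a filter at a TPM of 5 or none, a pseudocount of 0.1, eBayes without trend, the macrophage marker mean as covariate, and leaving out each library. Receptor shares, the Tlr8 to Tlr7 ratio and the levels relative to single markers were added after seeing the data.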

Additional observations from a re-analysis of the deposited data

How the results depend on the processing

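No member passed the adjusted threshold under any alternative, and the count at the unadjusted threshold stayed at 1 (Tlr8) under 8 alternatives and ran from 0 to 1 on leaving out single libraries. All members kept their direction except on leaving out 1 library, where Tlr6 reached 0.28 without C5aR-/- TAM 3 (range -0.51 to 0.28), Tlr9 -0.30 without C5aR-/- TAM 1 (-0.30 to 0.52) and Tlr13 -0.077 without C5aR-/- TAM 1 (-0.077 to 0.90). The other estimates ran from -0.80 to -0.04 for Tlr2 (lowest in size without C5aR-/- TAM 3), 0.012 to 0.58 for Tlr4 (without C5aR-/- TAM 1), 0.12 to 1.2 for Tlr7 (without C5aR-/- TAM 1), -0.91 to -0.27 for Tlr3 (without WT TAM 3) and 0.39 to 0.82 for Tlr1 (without C5aR-/- TAM 1). Tlr6 and Tlr9 did not pass a TPM of at least 5. The unadjusted p of Myd88 was above 0.05 with median-of-ratios scaling (0.0623, limma), the block (0.0722) and eBayes without trend (0.0532). With the macrophage covariate C5ar1 was at -5.33 (limma adjusted p = 0.0489), and it ran from -5.63 to -4.45 on leaving out libraries, past the adjusted threshold without C5aR-/- TAM 1 (adjusted p = 0.0221). The median of the remaining Toll-like receptor genes was 1.30 with a pseudocount of 0.1 and 0.31 with no filter, when 3 genes entered. On leaving out libraries the medians ran from -0.08 to 0.19 for other TIR adaptors, 0.032 to 0.66 for receptor processing and -0.79 to -0.39 for other sensors. The causes were not tested.

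Deviations of same-numbered libraries from their group means correlated at 0.186, -0.011 and 0.272 for numbers 1, 2 and 3. Since number 2 showed no correlation and no label ties the numbers, the libraries were not treated as paired. With the replicate block no gene passed the adjusted threshold and 344 were called higher and 467 lower at the unadjusted one, and Tlr8 had an unadjusted p of 4.01e-04 (limma adjusted p = 0.109). Over all genes, 2 passed the adjusted threshold with eBayes without trend, 22 with the covariate, and 0 to 356 on leaving out libraries (356 without C5aR-/- TAM 1). The unadjusted split of 314 higher and 419 lower became 386 and 371 with quantile normalization and 359 and 375 with median-of-ratios scaling. Depth is unknown, so the spread between 3 libraries limits all values.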
